A study of Arabidopsis thaliana with 12 samples.

Results

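The 26S proteasome of Arabidopsis thaliana was followed through its subunit transcripts, and 42 of 50 listed subunit loci were among the 20777 loci measured. The loci were listed by subunit family, and every listed locus with a value was kept. By the subunit names of the gene table used, 9 of 11 alpha and 9 of 10 beta loci of the core particle were measured. Of the regulatory particle, 6 of 8 ATPase loci, 7 of 7 non-ATPase loci and the single RPN10 locus were measured. A further 13 listed loci, 10 of them measured, carried no subunit name in that table. Counts and medians by role cover the named loci only, and so may leave out part of a particle. PAA1, PAA2, PBE1, RPT1A, RPT6A, AT3G26340, AT5G20000 and AT4G19006 were not analysed here. Averaged over the 12 arrays, all 42 reached a log2 value of 6, the level taken here as expressed, and the lowest was 6.88 for RPN5B.

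The arrays compared gra1-D, gra2-D and gra3-D, mutants named grandifolia, with wild type (WT), all of the Col-0 ecotype, and the series title ties the mutants to a chromosomal duplication. Each group held 3 ATH1 arrays, labelled as biological replicates, of RNA from stage 1.03 seedlings (their vegetative part), raised on MS medium at 22 °C under days of 16 h light and 8 h dark. Each mutant group is 1 line, and how many seedlings stood behind an array is not given in the sources used here. In bulk RNA of this kind, fewer cells of a type and less RNA per cell cannot be told apart.

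The 26S proteasome degrades proteins tagged with ubiquitin. Its barrel-shaped core holds rings of alpha subunits around rings of beta subunits, some of which cut the substrate, and its regulatory particle recognises ubiquitin, unfolds the substrate with a ring of ATPases (RPT subunits) and feeds it into the core, helped by non-ATPase (RPN) subunits. Each subunit occupies a fixed place in the complex, so subunits are made in matched amounts in many organisms, and in plants NAC transcription factors raise proteasome genes together when the complex is inhibited. Duplicating the gene of 1 subunit and not of the others is a change in the ratio of genes within the complex.

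Across the series, array medians of the log2 values ran between 6.36 and 6.43, and arrays of a group correlated at 0.9955 to 0.9971 over loci, which are not independent replicates. No 2 arrays held identical values. Both measured leaf markers of 5 listed averaged 13.5 to 14.2 in every group, while 0 of 6 floral and 0 of 5 seed storage markers reached a mean of 6 in any group. Of 9 measured root markers 3 reached it in every group, led by PYK10, a beta-glucosidase of root endoplasmic reticulum bodies, at group means of 10.6 to 11.2. PYK10 fell by 0.54 on the log2 scale in gra2-D against WT (limma, adjusted p = 0.0106). SHR (AT4G37650), a transcription factor of root patterning that lies in the raised run described below, rose by 0.81 in gra2-D, by 0.85 in gra1-D and by 0.86 in gra3-D (limma, adjusted p = 2.13e-05, 1.98e-05 and 1.51e-05). SCR, its partner in root patterning, differed by 0.07 in gra2-D, by 0.06 in gra1-D and by 0.12 in gra3-D and was not called. Summed over the 9 root markers, the log2 values ran from 52.6 to 53.2 in gra2-D, 52.8 to 53.4 in gra1-D, 52.4 to 53.0 in gra3-D and 51.6 to 53.1 in WT. The sums take in SHR, higher in every mutant, and 5 markers with means under 5 in every group, close to background. Similar sums therefore do not show similar root content, and whether root RNA had a part in any result below was not tested.

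In each mutant a run of neighbouring loci at the end of chromosome 4 was higher than in WT, and its bounds were taken from an earlier segmentation of these same arrays. The run began at AT4G31170 in gra2-D, at AT4G32830 in gra3-D and at AT4G33510 in gra1-D. PBA1 (AT4G31300), a protease subunit of the core's beta rings, lay 5 expressed loci past the start in gra2-D, and 89 expressed loci before the start in gra3-D and 132 before it in gra1-D. RPN10 (AT4G38630), a regulatory particle subunit that binds ubiquitin chains, lay inside the run in all 3 lines, 429 expressed loci past the start in gra2-D, 335 in gra3-D and 292 in gra1-D. The other 40 measured subunit loci lay outside it. Since the run was defined on these arrays, the rise of PBA1 and RPN10 is not independent of their place in it.

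PBA1 was higher in gra2-D than in every other group, and RPN10 was higher in all 3 mutants than in WT, with estimates just under the log2 difference of 1 that a doubling gives and 95% intervals that took it in. No subunit locus outside the run was called higher in any line at an adjusted p under 0.05 (limma). PBA1 stood at 11.21, 11.10 and 11.13 on the gra2-D arrays. It stood at 10.25, 10.09 and 10.20 in gra1-D, at 10.24, 10.21 and 10.14 in gra3-D, and at 10.26, 10.21 and 10.29 in WT. All gra2-D arrays lay above the other 9 arrays, and the gra1-D and gra3-D arrays overlapped those of WT.

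PBA1 rose in gra2-D by a log2 difference of 0.89 ± 0.068 (SE, n = 3 arrays each; 95% interval 0.75 to 1.04), which is 1.86-fold (limma over all loci, Benjamini-Hochberg adjusted p = 1.11e-06). The differences from WT were -0.07 ± 0.068 in gra1-D and -0.06 ± 0.068 in gra3-D (limma, adjusted p = 0.651 and 0.760). Tested directly between lines, PBA1 was higher in gra2-D than in gra1-D by 0.97 (95% interval 0.82 to 1.11; 1.95-fold) and higher than in gra3-D by 0.95 (1.93-fold), with limma adjusted p-values of 2.18e-06 and 2.93e-06. Comparisons with WT share the WT arrays, and those between lines share the gra2-D arrays.

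RPN10 stood at 10.88, 10.70 and 10.88 in gra1-D, at 10.91, 10.89 and 11.03 in gra2-D, and at 10.89, 10.74 and 10.79 in gra3-D. The WT arrays gave 9.97, 9.91 and 10.01, below all 9 mutant arrays. RPN10 rose by 0.98 ± 0.075 in gra2-D (1.97-fold, adjusted p = 1.16e-06), by 0.86 ± 0.075 in gra1-D (1.81-fold, adjusted p = 4.96e-06) and by 0.84 ± 0.075 in gra3-D (1.79-fold, adjusted p = 5.14e-06; limma, SE, n = 3 arrays per group). The gra2-D arrays lay above the gra1-D arrays by a small margin and overlapped those of gra3-D. The difference between gra2-D and gra1-D was 0.12 ± 0.075 (95% interval -0.04 to 0.28; limma adjusted p = 0.709), that between gra2-D and gra3-D was 0.13 ± 0.075 (-0.03 to 0.30; adjusted p = 0.592), and that between gra3-D and gra1-D was -0.01 ± 0.075 (-0.17 to 0.15).

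**Figure D1:**
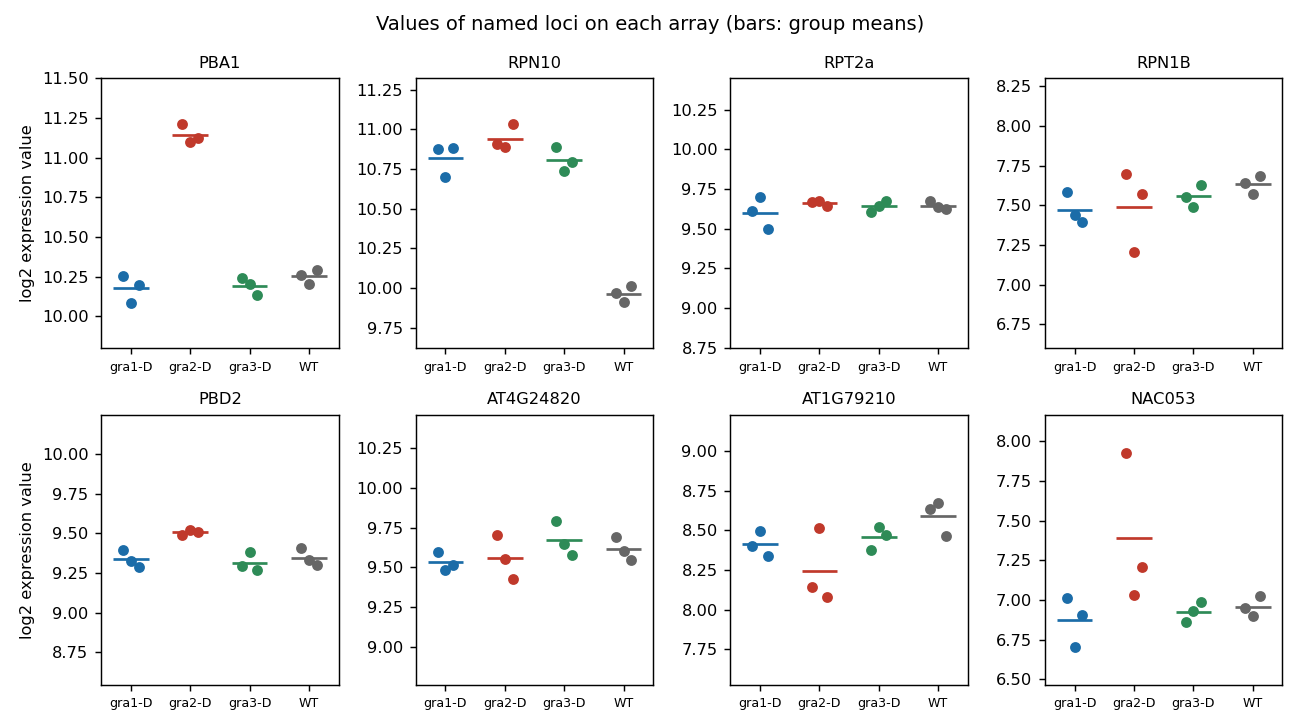
Log2 expression values (vertical axis, 1 panel per locus, all axes of equal span) of 8 named loci on each of the 12 arrays, by group; points are arrays and bars are group means. PBA1 stands apart in gra2-D at 11.10 to 11.21, and RPN10 lies at 10.70 or above in every mutant against 10.01 or below in WT.

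No departure of either locus from the run around it passed the test. The median change of the run's expressed loci was 0.87 in gra2-D (520 loci), 0.85 in gra1-D (383 loci) and 0.87 in gra3-D (426 loci). PBA1 in gra2-D departed from that median by 0.020 (adjusted p = 0.853), and RPN10 departed by 0.11 in gra2-D (adjusted p = 0.325), by 0.0044 in gra1-D (adjusted p = 0.979) and by -0.030 in gra3-D (adjusted p = 0.817; all limma SE, adjusted over the run's expressed loci). Among run loci with a mean of 10 to 12, where both lie, the median change was 0.78 in gra2-D (87 loci), 0.78 in gra1-D (69 loci) and 0.80 in gra3-D (74 loci). Over all expressed loci of the gra2-D run, the spread with the outer 10% left off at each end was 0.57 to 1.13, which takes in PBA1 and RPN10.

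PBA1 sits near the run's edge in gra2-D, and its immediate neighbours lie inside it. The run's first locus there is the outermost of the 5 neighbours before PBA1. Since the bounds were drawn on these arrays, the rise of the neighbours, and PBA1's place among them, is no separate support. Of the 5 expressed loci on each side of it, 9 of 10 were called higher in gra2-D than in WT, where 5.24% of all loci were. Their median change was 0.85, between 0.28 for AT4G31210 and 1.12 for AT4G31290. In gra1-D the same loci had a median of -0.09 with 0 called higher and 3 called lower, and in gra3-D a median of -0.09 with 1 called higher and 3 called lower. Of all loci, 2.82% were called higher and 2.76% lower in gra1-D, and 3.13% and 2.97% in gra3-D. AT4G31210 was the lowest in both lines, at -0.51 in gra1-D and -0.69 in gra3-D. Set directly against the other lines, all 10 neighbours were called higher in gra2-D, where 0.991% of all loci were against gra1-D and 0.717% against gra3-D. Their medians were 0.92 against gra1-D (0.72 to 1.02) and 0.92 against gra3-D (0.75 to 1.02). PBA1's own differences of 0.97 and 0.95 lay within those ranges.

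Around RPN10, where the neighbours also lie inside the run, 9 of 10 were called higher in each line. Of all loci, 5.24%, 2.82% and 3.13% were called higher in gra2-D, gra1-D and gra3-D. The neighbours had medians of 0.996 in gra2-D, 0.96 in gra1-D and 0.96 in gra3-D. The exception was MYB4, which encodes a MYB transcription factor, at 0.03 in gra2-D, 0.14 in gra1-D and 0.10 in gra3-D. The highest neighbour in each line was AT4G38550, at 1.18, 1.40 and 1.21 in gra1-D, gra2-D and gra3-D in that order. None of these 10 loci was called between gra2-D and gra1-D or between gra2-D and gra3-D, where 1.23% and 0.89% of all loci were called.

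**Figure D2:**
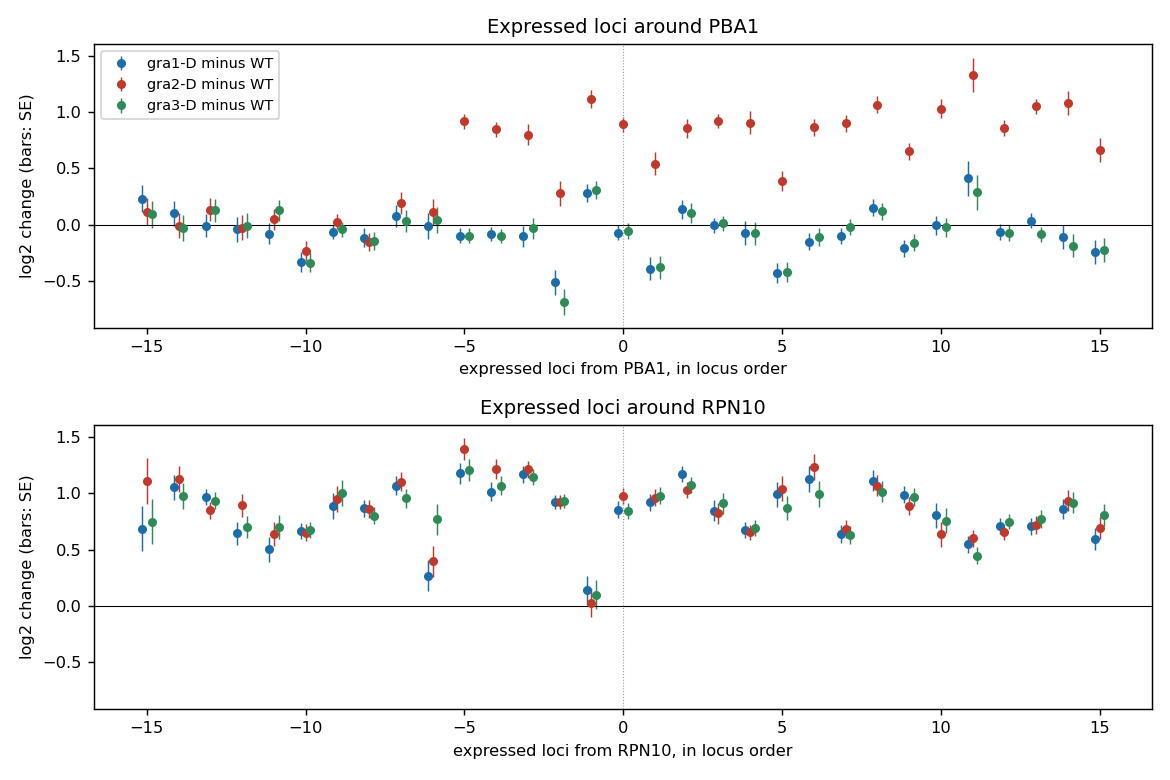
Log2 change against WT (vertical axis, points with SE bars) of the 15 expressed loci on each side of PBA1 (upper panel) and of RPN10 (lower panel), by position in locus order. Around PBA1 the gra2-D points step up 5 loci before it while the gra1-D and gra3-D points lie on both sides of 0, and around RPN10 all 3 lines lie above 0, with MYB4 just before it the lowest.

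The fit called 3 of 42 subunit loci in gra2-D, 1 in gra1-D and 1 in gra3-D. Of all 20777 loci, 11.5% were called in gra2-D, 5.58% in gra1-D and 6.11% in gra3-D at the same threshold, an adjusted p under 0.05. Higher calls numbered 1, 2 and 1 of 42 (RPN10 in gra1-D, PBA1 and RPN10 in gra2-D, RPN10 in gra3-D), where 2.82%, 5.24% and 3.13% of all loci were called higher in gra1-D, gra2-D and gra3-D. Lower calls numbered 0, 1 and 0, where 2.76%, 6.23% and 2.97% of all loci were called lower in the same lines. Outside the run, then, 0 of 40 were called in gra1-D and gra3-D and 1 of 40 in gra2-D, and at an unadjusted p under 0.05 the counts were 3 in gra2-D, 4 in gra1-D and 3 in gra3-D, where 23.8%, 18% and 17.7% of all loci passed. All of these were lower than WT save for PBD2 in gra2-D.

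**Figure D3:**
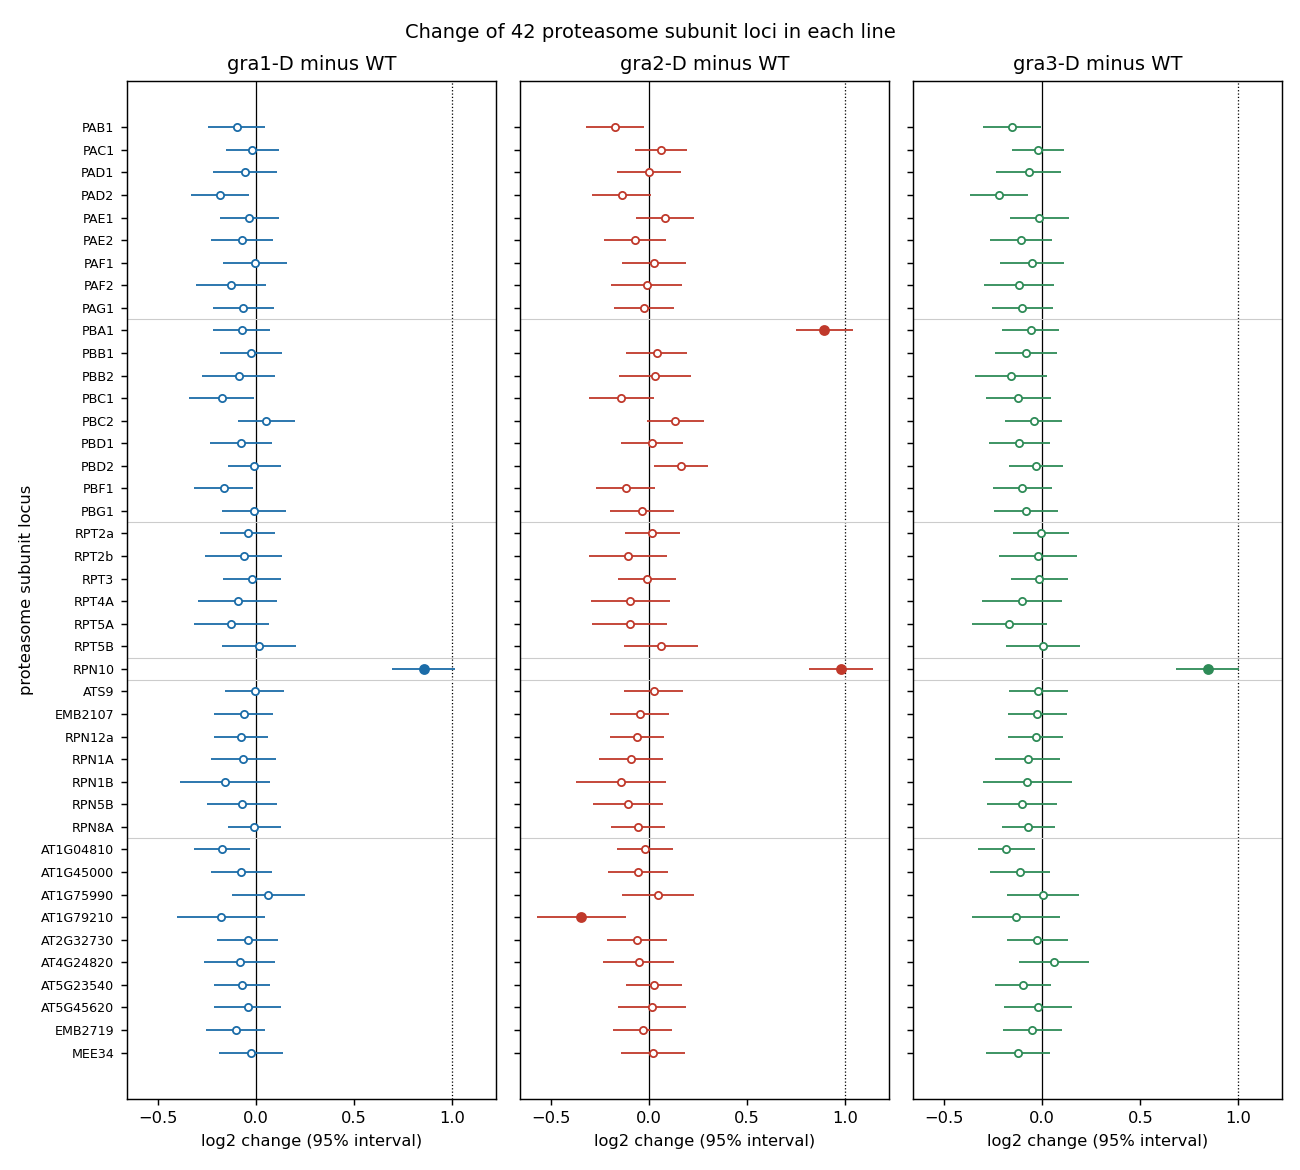
Log2 change against WT (horizontal axis, points with 95% intervals) of the 42 subunit loci in gra1-D, gra2-D and gra3-D, grouped as alpha, beta, ATPase, RPN10, other non-ATPase and unnamed loci; filled points passed an adjusted p under 0.05 and the dotted line marks a doubling. Only PBA1 in gra2-D and RPN10 in all lines come near the dotted line, and AT1G79210 in gra2-D is the single filled point below 0.

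The intervals limit how much the transcripts of the other subunits could have followed. The highest upper 95% bound among the 40 was 0.30 in gra2-D (PBD2, 1.23-fold), 0.25 in gra1-D (AT1G75990, 1.19-fold) and 0.24 in gra3-D (AT4G24820, 1.18-fold), all far under the changes of PBA1 and RPN10. The lowest lower bound was -0.57 in gra2-D (AT1G79210), -0.41 in gra1-D (AT1G79210) and -0.37 in gra3-D (PAD2). The whole interval lay within 0.5 of no change for 40, 39 and 40 of the 40 loci in gra1-D, gra2-D and gra3-D, and within 0.3 for 32, 35 and 32.

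Set against the named loci of its own particle on the same array, the transcript of each raised subunit stood in excess by about its whole change. Only RNA was measured, so whether subunit proteins or the assembled complex changed in ratio was not tested. PBA1 minus the median of the 17 other named core loci, each relative to its WT mean, was 0.87, 0.90 and 0.90 on the gra2-D arrays (0.89 ± 0.018, SD, n = 3). The same difference averaged -0.02 ± 0.044 in gra1-D, 0.03 ± 0.062 in gra3-D and -0.001 ± 0.055 in WT, so the gra2-D arrays lay apart from the other 9. RPN10 minus the median of 13 other named regulatory loci averaged 1.04 ± 0.086 in gra2-D, 0.91 ± 0.10 in gra1-D, 0.88 ± 0.060 in gra3-D and 0.0015 ± 0.053 in WT (SD, n = 3 each). The core median itself averaged 0.0006 ± 0.078 in gra2-D and the regulatory median -0.06 ± 0.042 there (SD, n = 3).

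**Figure D4:**
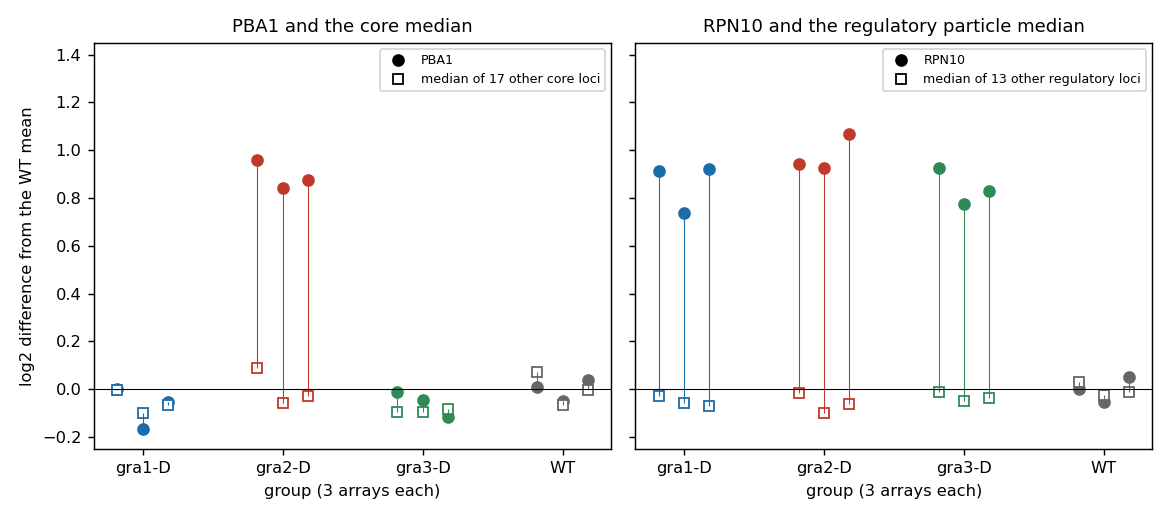
Log2 difference from the WT mean (vertical axis) per array, for PBA1 (filled) and the median of the 17 other named core loci (open squares) on the left, and for RPN10 and the median of 13 other named regulatory loci on the right; lines join values of 1 array. The gap is near 0.9 in gra2-D on the left and near 0.9 or 1 in every mutant on the right, and near 0 in WT.

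The 40 loci outside the run lay slightly below WT in gra1-D and gra3-D. Their median change was -0.03 in gra2-D, -0.06 in gra1-D and -0.08 in gra3-D. The median of all loci was -0.0002, -0.02 and -0.02 in gra2-D, gra1-D and gra3-D, and that of the 10775 expressed loci outside every run was -0.04, -0.05 and -0.04. Estimates lay below 0 for 25 of 40 in gra2-D, 37 of 40 in gra1-D and 37 of 40 in gra3-D, against 58.9%, 63.3% and 60.1% of those expressed loci. Per array, the median over the 40 averaged -0.03 ± 0.040 in gra2-D, -0.06 ± 0.040 in gra1-D, -0.07 ± 0.023 in gra3-D and 0.004 ± 0.047 in WT (SD, n = 3 each). WT ran from -0.04 to 0.06, so gra1-D and gra2-D arrays overlapped it, while the gra3-D arrays, at -0.10 to -0.05, lay below it. The replicate numbers paired the arrays of gra1-D and of gra2-D with those of WT, and within each of those pairs the mutant median was the lower, with differences of -0.04, -0.03 and -0.04 for gra2-D and of -0.07, -0.06 and -0.07 for gra1-D. With arrays centred on chromosomes 1, 2, 3 and 5 the medians stayed below 0, at -0.0064 in gra2-D, -0.02 in gra1-D and -0.05 in gra3-D. Loci below 0 then numbered 21, 27 and 28 of 40, against 53.4%, 51.6% and 52.8% of the expressed loci outside the runs. After further quantile normalization instead, the medians were -0.03, -0.04 and -0.07 in gra2-D, gra1-D and gra3-D. Loci below 0 then numbered 24, 30 and 36 of 40, against 58.1%, 57.4% and 57.9% of those expressed loci.

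Arrays of a mutant lay wholly below WT for 3 of the 40 in gra2-D, 6 in gra1-D and 8 in gra3-D, where 14.8%, 14.2% and 13.7% of all loci did so, and wholly above it for 1, 0 and 0, where 12.3%, 8.36% and 8.92% of all loci did so. Of the 10775 expressed loci outside every run, 22.7%, 21.3% and 19.4% lay wholly below WT in gra2-D, gra1-D and gra3-D. The counts below WT, 7.5%, 15% and 20% of the 40 in the same order, were above the share of all loci in gra3-D and near that of the expressed loci there.

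By role among the named loci, the alpha subunits, which gate the core, had median changes of -0.01 in gra2-D, -0.06 in gra1-D and -0.10 in gra3-D. PAD2 was the lowest alpha locus in gra1-D and gra3-D. It stood at 9.38, 9.26 and 9.29 in gra2-D, at 9.29, 9.25 and 9.27 in gra1-D, at 9.27, 9.25 and 9.17 in gra3-D, and at 9.56, 9.35 and 9.44 in WT. The gra1-D and gra3-D arrays all lay below WT, with differences of -0.18 ± 0.069 and -0.22 ± 0.069, and neither passed the test (limma, adjusted p = 0.165 and 0.0883). Its paralogue PAD1 lay at -0.06 in gra1-D and at -0.07 in gra3-D. PAB1 was the lowest named alpha locus in gra2-D, at -0.17 ± 0.068 (limma, adjusted p = 0.133), and the highest there were PAE1 at 0.08 and PAC1 at 0.06.

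The beta loci other than PBA1 had medians of 0.02 in gra2-D, -0.05 in gra1-D and -0.09 in gra3-D. PBD2 was the highest of the 40 in gra2-D and lies on chromosome 4, 748 expressed loci before the start of that line's run. It stood at 9.49, 9.52 and 9.51 in gra2-D, at 9.40, 9.33 and 9.29 in gra1-D, at 9.29, 9.38 and 9.27 in gra3-D, and at 9.41, 9.33 and 9.30 in WT. The gra2-D arrays lay above the other 9, yet the difference from WT of 0.16 ± 0.063 did not pass the test (limma, adjusted p = 0.133), nor did those of 0.17 from gra1-D and 0.19 from gra3-D (adjusted p = 0.401 and 0.294). Its paralogue PBD1 differed from WT by 0.01 in gra2-D. PBC2 followed at 0.13 ± 0.067 in gra2-D (limma, adjusted p = 0.257), whereas its paralogue PBC1 lay at -0.14 there and at -0.17 in gra1-D. PBB2, which like its paralogue PBB1 encodes a protease subunit, was among the lowest loci in gra3-D at -0.16 ± 0.086, with PBB1 at -0.08.

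The ATPases had medians of -0.05 in gra2-D, -0.05 in gra1-D and -0.02 in gra3-D. RPT2a, an ATPase whose tail helps to open the core, lies on chromosome 4 115 expressed loci before the gra2-D run. It stood at 9.67, 9.68 and 9.64 in gra2-D, at 9.61, 9.70 and 9.50 in gra1-D, at 9.60, 9.64 and 9.68 in gra3-D, and at 9.67, 9.64 and 9.63 in WT, so all groups overlapped. The difference in gra2-D was 0.02 ± 0.065, and its paralogue RPT2b lay at -0.11 ± 0.092. RPT5A was among the lowest of the 40 in gra3-D at -0.17 ± 0.089, and its paralogue RPT5B among the highest in gra1-D and gra3-D at 0.01 and 0.0046.

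The non-ATPase loci other than RPN10 had medians of -0.06 in gra2-D, -0.07 in gra1-D and -0.07 in gra3-D. RPN1B, a scaffold subunit of the base, lies on chromosome 4 137 expressed loci before the gra2-D run. It stood at 7.70, 7.20 and 7.57 in gra2-D, at 7.58, 7.44 and 7.40 in gra1-D, at 7.55, 7.49 and 7.63 in gra3-D, and at 7.64, 7.57 and 7.68 in WT. Replicate 2 of gra2-D was the lowest of the 12 arrays and replicate 1 the highest, and the difference of -0.14 ± 0.106 did not pass the test (limma, adjusted p = 0.482). Its paralogue RPN1A lay between -0.09 and -0.07 in the 3 lines. The lid subunits RPN5 (EMB2107 and RPN5B), RPN6 (ATS9), RPN8A and RPN12a ran from -0.11 to 0.02 over all lines.

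Of the 10 loci without a subunit name in the table, the medians were -0.03 in gra2-D, -0.07 in gra1-D and -0.08 in gra3-D. AT4G24820 on chromosome 4, 311 expressed loci before the gra2-D run, stood at 9.70, 9.55 and 9.43 in gra2-D, at 9.60, 9.48 and 9.51 in gra1-D, at 9.79, 9.65 and 9.58 in gra3-D, and at 9.69, 9.61 and 9.55 in WT, and all groups overlapped. AT1G04810 was among the lowest in gra1-D and gra3-D, at -0.18 ± 0.067 in each and with all arrays below WT (limma, adjusted p = 0.170 and 0.145). AT1G75990 was the highest of the 40 in gra1-D at 0.06 ± 0.086.

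AT1G79210 was the single locus outside the run to pass the test, and it was lower in gra2-D. It stood at 8.14, 8.51 and 8.08 in gra2-D, at 8.40, 8.50 and 8.34 in gra1-D, at 8.37, 8.52 and 8.47 in gra3-D, and at 8.63, 8.67 and 8.46 in WT. Replicate 2 of gra2-D overlapped replicate 3 of WT. The difference of -0.35 ± 0.105 in gra2-D had an adjusted p of 0.0492 (limma), and the call was lost in 7 of 13 alternative fits. It was lost without replicate 1 or 2 of WT (adjusted p = 0.138 and 0.149) and without replicate 1 or 3 of gra2-D (adjusted p = 0.152 and 0.191, limma), and the difference without the last of these was -0.26. The direct differences of gra2-D from gra1-D and gra3-D, -0.17 and -0.21, did not pass (limma, adjusted p = 0.719 and 0.539).

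Between lines, 1 of 42 was called between gra2-D and gra1-D and 1 between gra2-D and gra3-D, PBA1 in each, where 1.23% and 0.89% of all loci were called. Between gra3-D and gra1-D 0 of 42 were called by limma and 0 had an unadjusted p under 0.05, where 0.221% of all loci were called and 3.86% had an unadjusted p under 0.05. Arrays of gra2-D lay wholly above gra3-D for 6 of the 40 loci outside the run, where 8.25% of all loci did so, and wholly below for 0, where 6.61% did so. Against gra1-D the counts were 3 above, where 7.91% of all loci did so, and 0 below, where 5.71% did so.

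Subunit loci varied little and partly together among replicates. The within-group SD had a median of 0.075 over the 42 loci, against 0.104 over the 11295 expressed loci. After group means were removed, pairs of subunit loci correlated over the 12 arrays with a median r of 0.28, against 0.035 for pairs of expressed loci, and 25.2% of subunit pairs exceeded 0.5, against 12.73%. These residuals share arrays and their normalization, so the 40 loci are not 40 separate readings of a shift. AT1G75990 followed the others most closely, with a median r of 0.50, and RPT2b and AT1G79210 ran against them at -0.33 and -0.26. PBA1, at 0.39, followed the other subunits within groups, while RPN10 was at 0.11.

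No gene listed as a partner of the proteasome was called. Counts in this and the following lists are set against 11.5%, 5.58% and 6.11% of all loci called in gra2-D, gra1-D and gra3-D, and 23.8%, 18% and 17.7% with an unadjusted p under 0.05. In the list of 14 regulators, assembly chaperones and partners, 0 were called by limma in any line, and 0, 1 and 0 had an unadjusted p under 0.05 in gra1-D, gra2-D and gra3-D, the 1 being NAC053. Its medians were -0.08, -0.04 and -0.05 in the same lines. NAC053 and NAC2 (also ANAC078) encode the transcription factors that activate proteasome genes when the complex is inhibited. NAC053 stood at 7.93, 7.03 and 7.21 in gra2-D, at 7.01, 6.70 and 6.91 in gra1-D, at 6.86, 6.93 and 6.99 in gra3-D, and at 6.95, 6.90 and 7.03 in WT. The gra2-D arrays lay above WT, replicate 2 only just and replicate 1 by far, and the difference of 0.43 ± 0.17 did not pass the test (limma, adjusted p = 0.134). Replicate 1 of gra2-D also had the highest core median of the 12 arrays, at 0.09, while its regulatory median was -0.02. Replicate 1 had the highest core median within WT (0.07) and gra1-D (-0.0021) too, though not within gra3-D. NAC053 stood at 6.95 and 7.01 on those WT and gra1-D arrays. Whether NAC053 and the core loci move together was not tested. NAC2 differed by 0.05 in gra2-D, 0.0025 in gra1-D and -0.20 in gra3-D. PA200, an activator that caps the core, lay at -0.10, -0.17 and -0.09, and the deubiquitinases UBP6 and UBP7 and the ubiquitin receptor RPN13 lay between -0.14 and -0.05.

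Ubiquitin itself and its carriers showed a few calls in gra2-D. In the list of ubiquitin genes and activating enzymes, with 9 of 11 measured, 2 fell in gra2-D, 1 fell in gra3-D and 0 were called in gra1-D. AT2G36170 encodes ubiquitin joined to ribosomal protein L40, and stood at 10.01, 9.80 and 10.02 in gra2-D, at 10.01, 10.13 and 10.09 in gra1-D, at 10.05, 10.02 and 10.07 in gra3-D, and at 10.26, 10.45 and 10.36 in WT. All mutant arrays lay below WT, with differences of -0.41 ± 0.077 in gra2-D (adjusted p = 0.00301), of -0.28 ± 0.077 in gra1-D (adjusted p = 0.0537) and -0.31 ± 0.077 in gra3-D (adjusted p = 0.0313, lost in 7 of 13 alternative fits, 5 of them with 1 array left out, with up to 0.127; limma). UBQ1, of the same fusion type, fell by 0.30 in gra2-D (limma, adjusted p = 0.00984). UBQ10, a chain of ubiquitin units, lay at -0.04, -0.04 and -0.03 in gra1-D, gra2-D and gra3-D, and the activating enzyme UBA1 at -0.11, -0.17 and -0.08.

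Of 8 measured shuttle and CDC48 loci of 10 listed, AtCDC48B, a relative of the segregase CDC48, rose in gra2-D and CDC48C fell. AtCDC48B stood at 5.77, 5.28 and 5.64 in gra2-D and at 5.19, 4.80 and 4.69 in WT, a difference of 0.67 ± 0.145 (limma, adjusted p = 0.00833). The WT mean of 4.89 is close to background, taken here as a mean under 5, so the size of the difference is uncertain. Over 12 alternative fits the difference ran from 0.56 to 0.82. The fall of CDC48C by 0.32 (limma, adjusted p = 0.0482) was lost in 9 of 12 alternative fits, 5 of them with 1 array left out, with an adjusted p of up to 0.186 without replicate 3 of gra2-D. The 4 RAD23 shuttles and DDI1 lay between -0.20 and 0.02 over the 3 lines, and 0 of the 8 were called in gra1-D or gra3-D, by limma or at an unadjusted p under 0.05.

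No gene of the cytosolic or endoplasmic reticulum folding lists, which many organisms raise when proteins misfold, was called in any line without the replicate block. With the block 1 of each list was called in gra2-D, where 13.9% of all loci were called, against 11.5% without the block. Of 18 measured cytosolic heat shock loci of 19 listed, 0 were called in any line by limma, and 1, 3 and 1 had an unadjusted p under 0.05 in gra1-D, gra2-D and gra3-D. Group means of 10 of the 18 were under 5 in every group, close to background, so their differences are not read here. The other 8 had medians of -0.07, -0.04 and 0.0084, and 0, 3 and 1 of them had an unadjusted p under 0.05. The highest was HSP70, a chaperone, with arrays at 6.18, 5.62 and 6.17 in gra2-D, at 6.18, 5.47 and 5.82 in gra1-D, at 5.87, 5.62 and 6.30 in gra3-D, and at 5.76, 5.32 and 5.06 in WT. Its groups overlapped, and the differences of 0.61, 0.44 and 0.55 in gra2-D, gra1-D and gra3-D did not pass (limma, adjusted p = 0.110, 0.336 and 0.214). With the replicate number as a block, the difference in gra2-D passed (limma, adjusted p = 0.0379). HSP101, a disaggregase, and HSFA2, a heat shock factor, were close to background in every group.

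Of 7 measured endoplasmic reticulum folding loci of 9 listed, 0 were called by limma, and 1, 3 and 1 had an unadjusted p under 0.05 in gra1-D, gra2-D and gra3-D. Group means of 2 of the 7 were under 5 in every group, and the other 5 had medians of 0.08, 0.12 and 0.02, where the expressed loci outside the runs had medians below 0. In gra2-D all 7 lay above WT, the lowest by 0.09, where 58.9% of those expressed loci lay below 0. The lowest of the 7 lay at -0.01 in gra1-D and at -0.03 in gra3-D, and the list was not tested as a set. PDIL1-1, a protein disulfide isomerase, came nearest to the threshold at 0.21 in gra2-D (limma, adjusted p = 0.0511, and 0.0389 with the replicate block), and BZIP60, a transcription factor of this response, lay at 0.21 there (adjusted p = 0.0938).

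Other assemblies of many subunits had 1 call among them. Of 10 COP9 signalosome loci, a complex related to the proteasome lid, 0 were called by limma, and 2, 1 and 3 had an unadjusted p under 0.05 in gra1-D, gra2-D and gra3-D. Of 9 CCT chaperonin loci 1 fell, AT3G11830 in gra3-D by 0.26 (limma, adjusted p = 0.0344), which was lost in 8 of 13 alternative fits, including each of the 6 with 1 array left out, with up to 0.120. The CCT medians were -0.10, -0.14 and -0.19 in gra2-D, gra1-D and gra3-D.

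The autophagy list held 3 calls, all in gra2-D. Of 10 ATG8 and NBR1 loci, which carry cargo into the vacuole as the other main route of protein disposal, 3 rose in gra2-D, where 5.24% of all loci were called higher, and 0 were called in gra1-D or gra3-D, where 1 each had an unadjusted p under 0.05. ATG8D stood at 7.35, 7.50 and 7.46 in gra2-D, at 6.99, 7.32 and 6.76 in gra1-D, at 7.01, 7.20 and 6.97 in gra3-D, and at 6.55, 7.06 and 6.71 in WT. Its gra2-D arrays lay above all others, and it rose by 0.66 ± 0.14 (limma, adjusted p = 0.00726). ATG8G rose by 0.38 ± 0.089 (limma, adjusted p = 0.0125) and APG8A (ATG8A) by 0.29 ± 0.064 (adjusted p = 0.00861). Set directly against gra1-D and gra3-D these 3 did not pass (limma, adjusted p from 0.079 to 0.382), whereas ATG8B, at 0.34 against WT in gra2-D (adjusted p = 0.0704, and 0.0214 with the replicate block), was higher than in gra1-D by 0.60 and than in gra3-D by 0.56 (adjusted p = 0.0143 and 0.0313). No measured locus of these lists of partners, folding and autophagy genes lay in the raised run.

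**Figure D5:**
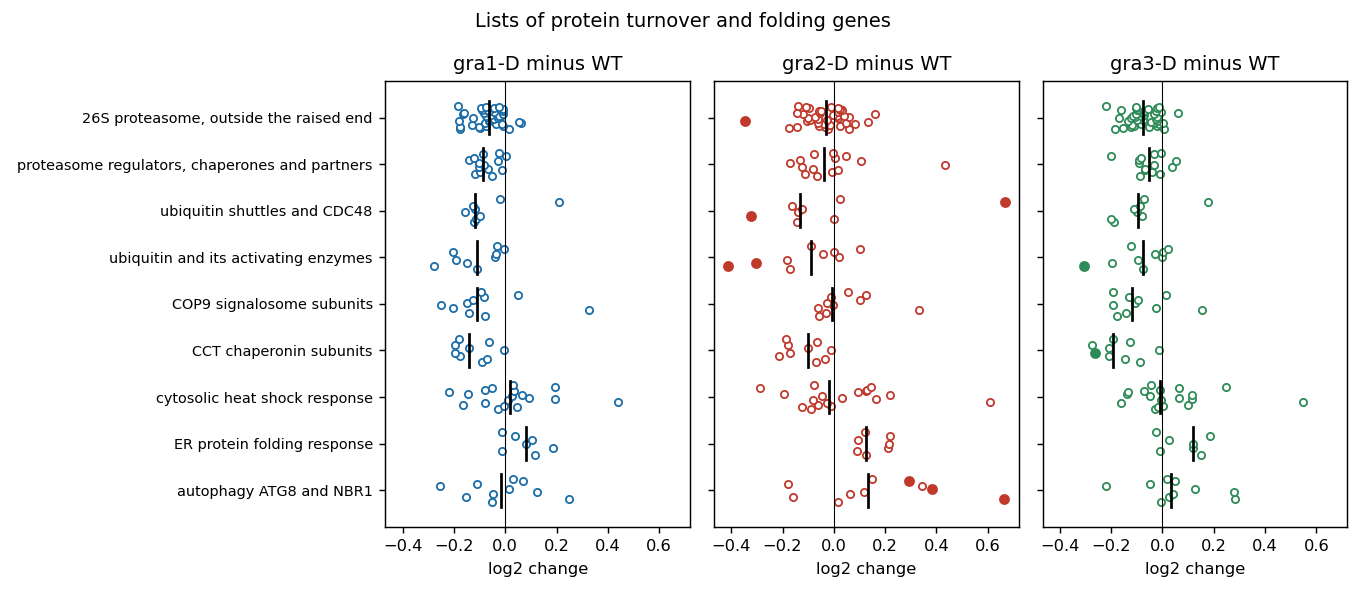
Log2 change against WT (horizontal axis) of each locus in the 40 subunit loci outside the run and in 8 lists of protein turnover and folding genes, by line; points are loci, filled where called at an adjusted p under 0.05, and bars are list medians. The subunit loci outside the run lie close to 0, and most filled points lie in gra2-D, 3 of them ATG8 loci.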

How the data were processed

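Total RNA of 4 groups, 3 arrays each, was hybridized to ATH1 arrays. The authors deposited log2 expression values for 20777 loci, made with RMA per the submitters' processing notes (version not stated). Which probes define a locus and on which genome build is not given in the sources used here, so no coordinates or sequences are given, and probes shared by near-identical paralogues could blur their values. Names came from a gene table that matched 20508 loci.

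Group means were fitted over all loci by limma (version 3.58.1, under R 4.3.3; lmFit, then eBayes) without a filter, with 8 residual and 5.28 prior degrees of freedom. Tests were two-sided, Benjamini-Hochberg adjustment ran over all loci of a contrast, and calls were made at an adjusted p under 0.05. The script was tested on simulated data. The labels state no pairing, but deviations of same-numbered arrays correlated above 0.1 in 3 of 3 pairs between gra1-D and WT (0.30 to 0.54), between gra2-D and WT (0.25 to 0.40) and between gra2-D and gra1-D (0.36 to 0.41), so the replicate number was taken as a pairing there, and in 1 of 3 pairs between gra3-D and WT, where it was not. The unblocked fit is the one reported, with the blocked value beside a result whose call it changed. Arrays have no read depth, so their number limits precision, and p-values measure the spread between arrays labelled as biological replicates.

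Subunit loci, gene lists and comparisons were chosen with earlier results of these data known. Values on every array are given for PBA1, RPN10, chromosome 4 members and called members. Changes are given for most of the 4 highest and 4 lowest members per line, for paralogues of some of them, and for called list members. PAD2, NAC053, HSP70 and the array values of other list members were added after their values were seen. Lists cover proteasome regulators, chaperones and partners, ubiquitin shuttles and CDC48, ubiquitin and its activating enzymes, COP9, CCT, cytosolic heat shock, endoplasmic reticulum folding, ATG8 and NBR1, and leaf, root, floral and seed storage markers. Alternatives were a replicate block, leaving out arrays, the compared groups only, an intensity trend, array weights, centring on chromosomes 1, 2, 3 and 5, further quantile normalization, and expressed loci only.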

Additional observations from a re-analysis of the deposited data

Results flagged for a closer look

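The change of PBA1 differed between lines by a direct test, with gra2-D above gra1-D by 0.97 and above gra3-D by 0.95 on the log2 scale (limma, adjusted p = 2.18e-06 and 2.93e-06), and all 3 gra2-D arrays were higher. This follows the bounds of the raised run, which were drawn on the same arrays. The change of ATG8B also differed, with gra2-D above gra1-D by 0.6 and above gra3-D by 0.56 (limma, adjusted p = 0.0143 and 0.0313), and again all 3 gra2-D arrays lay above those of the other line. ATG8B stood at 6.47, 6.25 and 6.15 in gra2-D, at 5.73, 5.67 and 5.67 in gra1-D, at 5.78, 5.65 and 5.75 in gra3-D, and at 6.24, 5.78 and 5.82 in WT, where replicate 1 overlapped gra2-D. The first call was lost in 3 of 12 alternative fits, without replicate 1 of gra2-D (adjusted p = 0.0754) or replicate 2 or 3 of gra1-D (0.0652 and 0.0668). The second was lost in 5 of 12, without replicate 1 or 2 of gra2-D (0.151 and 0.0809) or any replicate of gra3-D (0.0795 to 0.149).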

How the results depend on the processing

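PBA1 in gra2-D (0.86 to 0.92) and RPN10 in every line kept their direction and call in all 13 alternatives each, with adjusted p of at most 7.43e-05 for PBA1 and 0.000193 for RPN10. The count of called subunit loci stayed at 1 in gra1-D, ran from 2 to 3 in gra2-D, and was 1 in gra3-D except for 2 (RPN10 and PAD2) among expressed loci alone, where fewer loci enter the adjustment. The median of the 40 loci outside the run moved under centring to -0.023 in gra1-D and to -0.050 in gra3-D, and with 1 array left out ran from -0.094 to -0.040 in gra3-D (-0.040 without replicate 1 of WT), from -0.080 to -0.034 in gra1-D and from -0.057 to -0.0063 in gra2-D; the cause was not tested. RPN10's departure from the run in gra1-D, near 0, turned to -0.0015 under quantile normalization and ran from -0.030 to 0.046 with 1 array left out. Centring gave 66.2% of the gra1-D calls as higher, against 50.5% as deposited. The replicate number used as a block left 1, 3 and 1 subunit loci called in gra1-D, gra2-D and gra3-D. Under the block 7.03%, 13.9% and 7.68% of all loci were called in the same lines, against 5.58%, 11.5% and 6.11% without it. In gra2-D it added calls for HSP70, PDIL1-1 and ATG8B among the listed genes, and in gra1-D it changed no call of a subunit or listed gene. In gra3-D, where the numbers did not pair the arrays with WT, it added APG8H and AT5G16070. PYK10 lost its call without replicate 3 of gra2-D (adjusted p = 0.0526). Beyond the calls of PBA1 and RPN10 against WT, 18 calls of single named loci were followed, PBA1 and ATG8B between lines among them. Of these 18, 7 were lost in at least 1 alternative and 11 in none. The 11 include PBA1 against gra1-D and gra3-D and SHR in every line, which are loci of the raised run. Over 230 alternative fits of the 18 calls, 40 lost one. With 3 arrays a group, the median SE of a subunit locus was 0.073, which limits the differences that could be seen.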
